A study of Mus musculus with 6 samples.

Results

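The 9 genes described here encode core subunits of the Polycomb repressive complexes PRC1 and PRC2. They were chosen by gene name in the probe table, which lists them as EZH2, EZH1, EED, SUZ12, RING1, RNF2, BMI1, CBX7 and CBX8, and they are read by 14 of the 45281 probes of the array, which carries 28888 gene names in all. The series compared 3 Smchd1 null with 3 Smchd1 wildtype samples of pre-B cells, an early stage of B cell development, sorted at E17.5 from mouse embryos and each measured on 1 Illumina MouseWG-6 v2 array. The null samples were homozygous for a genetrap allele of Smchd1, a chromatin protein needed for silencing on the inactive X chromosome and at some autosomal gene clusters. Both groups were on the C57BL/6 background and carried the Eµ-Myc transgene, in which an immunoglobulin heavy chain enhancer drives the Myc oncogene in the B lineage, so no sample is free of the transgene. Neither the organ nor the sort is described in the labels. Whether the 3 samples of a group came from different embryos is not stated either. A p-value then sets a difference only against the spread of these samples, which may be technical.

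Polycomb proteins keep genes silent that other signals have switched off. PRC2 is built on EZH2 or EZH1, the enzymes that methylate a lysine on the tail of histone H3, together with SUZ12 and EED, which the enzyme needs to be stable and active. PRC1 is built on RING1 or RNF2 (RING1B), ubiquitin ligases for histone H2A, with a partner such as BMI1 and, in its canonical form, a chromobox protein such as CBX7 or CBX8 that binds the mark left by PRC2. In the mouse B lineage, Ezh2 is known to be high in early progenitors and needed for their development, and Bmi1 is known for repressing Cdkn2a and for cooperating with Myc in B cell lymphoma.

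No Polycomb gene of the 9 passed the test between Smchd1 null and wildtype pre-B cells. By the brightest probe of each gene, the log2 change (Smchd1 null minus wildtype) lay between -0.36 for Ezh1 and 0.09 for Ezh2, and the median over the 9 genes was -0.10, against -0.01 over all 10904 genes tested. The count of members past an adjusted p of 0.05 was 0 of 9 (limma, Benjamini-Hochberg over all probes tested), and the smallest adjusted p was 0.934. Over the whole array 9 of 15878 probes passed, or 0.0567%, and 0.0734% of genes. At an unadjusted p under 0.05 the count was 0 of 9 as well, where 3.85% of all genes had one. The 9 genes were all tested, since each had a probe detected above the negative controls (detection p under 0.05) on at least 3 of the 6 arrays. Of the 14 probes, 11 met that filter. The log2 change was below 0 for 8 of the 9 genes, against 52.4% of all genes. The groups did not overlap for 1 of the 9, Suz12, which was lower in null, where 4.89% of all genes had such a gap.

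**Figure D1:**
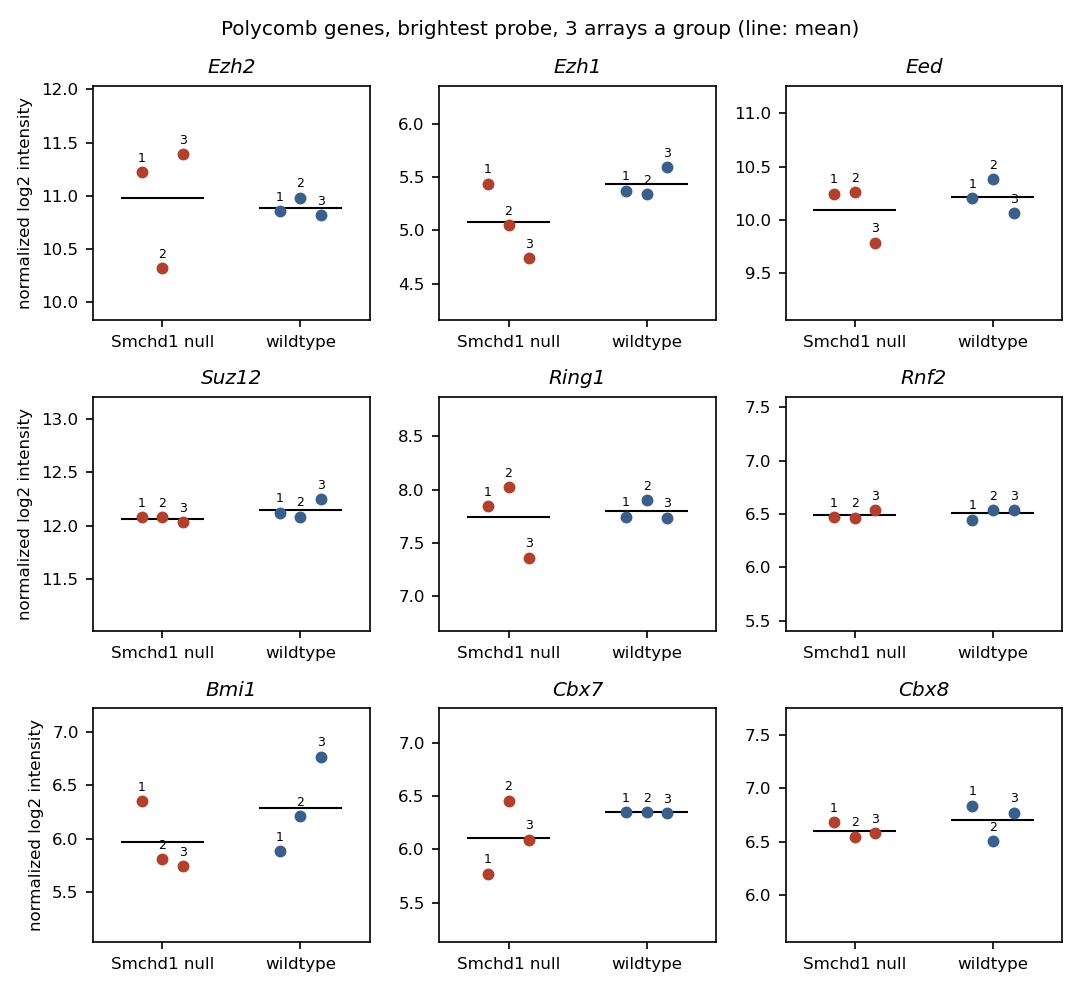
Normalized log2 intensity of the brightest probe of each Polycomb gene in the 3 Smchd1 null (red, left) and 3 wildtype (blue, right) arrays, numbered by replicate, with the group mean as a line; every panel spans the same range of log2 units. Ezh2 is spread from 10.32 to 11.39 among the null arrays and from 10.82 to 10.98 among the wildtype arrays, while the values of Suz12 and Rnf2 lie close together in both groups.

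To set the genes beside their regulatory sequence, the promoters of all 9 were found in RefSeq (GRCm38.p6) and read from 250 bases before to 30 bases after the annotated start, a window of 280 bases. The 4 printed below are those that hold a match to either of a pair of motifs. One is CACGTG, the E-box that Myc with its partner Max can bind, searched because all samples carry a Myc transgene. The other is the E2F motif of dividing cells, searched as TTTCCCGC, TTTCGCGC, TTTGCCGC and TTTGGCGC, on both strands. The E-box occurs in the windows of Bmi1 and Cbx8, that is 2 of 9, and in 6.8% of 32851 promoter windows of the same length. The E2F motif occurs in those of Ezh2 and Suz12, again 2 of 9, and in 2.1% of all windows. No E-box shares bases with an E2F motif. Counted from the start, the match begins at base 4 in Ezh2, at -219 in Suz12, at -215 in Bmi1 and at -98 in Cbx8. A match of letters is a description, not a bound site, and the arrays hold no binding data. The sequences run 5′ to 3′, with the matches in capitals, for Ezh2 (chr6:47595001-47595280, minus strand), Suz12 (chr11:79992856-79993135, plus strand), Bmi1 (chr2:18676768-18677047, plus strand) and Cbx8 (chr11:119040884-119041163, minus strand).
Ezh2: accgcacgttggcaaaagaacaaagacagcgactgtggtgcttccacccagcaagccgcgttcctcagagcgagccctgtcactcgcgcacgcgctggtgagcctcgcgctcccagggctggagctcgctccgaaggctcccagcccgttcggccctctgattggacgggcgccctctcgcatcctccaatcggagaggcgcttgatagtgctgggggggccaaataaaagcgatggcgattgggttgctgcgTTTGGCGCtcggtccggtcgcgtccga
Suz12: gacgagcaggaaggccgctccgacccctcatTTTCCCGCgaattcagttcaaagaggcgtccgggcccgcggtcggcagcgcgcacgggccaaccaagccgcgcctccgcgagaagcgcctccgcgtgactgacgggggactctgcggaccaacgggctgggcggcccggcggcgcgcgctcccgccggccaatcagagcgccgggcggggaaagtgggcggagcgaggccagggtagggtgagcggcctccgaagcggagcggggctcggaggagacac
Bmi1: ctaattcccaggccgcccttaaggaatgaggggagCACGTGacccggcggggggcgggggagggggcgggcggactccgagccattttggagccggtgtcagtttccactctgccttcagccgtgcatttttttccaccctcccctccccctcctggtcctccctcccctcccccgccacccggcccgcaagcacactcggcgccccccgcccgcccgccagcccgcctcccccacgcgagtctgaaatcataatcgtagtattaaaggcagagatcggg
Cbx8: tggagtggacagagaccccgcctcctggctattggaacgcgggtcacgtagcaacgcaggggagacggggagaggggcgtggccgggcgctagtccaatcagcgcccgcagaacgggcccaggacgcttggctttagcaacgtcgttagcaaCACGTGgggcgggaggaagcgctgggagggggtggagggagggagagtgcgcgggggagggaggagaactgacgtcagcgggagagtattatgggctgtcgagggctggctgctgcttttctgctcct
By the values given in the next paragraphs, neither the 2 genes with the E-box nor the 2 with the E2F motif passed the test between the groups.

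Some facts of the whole series bear on every value. Smchd1 itself, by its brightest probe, had log2 intensities of 4.64, 5.03 and 4.96 in Smchd1 null samples, none of them above detection. In wildtype samples it had 9.50, 9.65 and 9.67. Another tested Smchd1 probe was not detected in null either, with a log2 change of -2.41. A dimmer tested probe was detected on every null array, at 6.13, 5.15 and 5.43, against 6.90, 6.64 and 6.43 in wildtype. Its log2 change was -1.09 (limma adjusted p = 0.86). Smchd1 null replicate 3 stood apart, with r of 0.946 to 0.956 to each other array over the probes tested, where the other pairs had 0.984 to 0.994. Of 15 pre-B cell markers, 10 to 13 were detected on each null array and 10 or 11 on each wildtype array, among them Cd79b, Igll1 and Vpreb1, whereas Pax5, Rag2 and Dntt were detected on at most 2 arrays. Of 17 hepatocyte markers, 1, 4 and 9 were detected in null replicates 1, 2 and 3, against 11, 13 and 12 in wildtype. Set against the wildtype mean, their median was -3.47, -3.39 and -1.73 in null and -0.36, 0.25 and 0.09 in wildtype. The median of the myeloid markers on the same scale was -2.38, -1.91 and -0.15 in null and -0.92, 0.40 and 0.53 in wildtype. In sorted bulk samples fewer cells of a type and less RNA per cell cannot be told apart, and the part of these other cells in the Polycomb values was not tested.

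Among the PRC2 genes, Ezh2, the main methyltransferase of dividing cells, was bright in every sample. Its brightest probe had normalized log2 intensities of 11.22, 10.32 and 11.39 in Smchd1 null replicates 1, 2 and 3, against 10.86, 10.98 and 10.82 in wildtype. Null replicate 2 was the lowest of all 6 arrays and null replicates 1 and 3 were the 2 highest, so the null values lay on both sides of the wildtype values. The group means were 10.98 ± 0.58 in null and 10.89 ± 0.09 in wildtype (SD, n = 3 each), a log2 change of 0.09 (SE 0.28, limma adjusted p = 0.964). The 95% interval of the fold change ran from 0.677 to 1.68.

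Ezh2 was more widely spread in null than in wildtype after normalization. Before normalization the probe read 2056.8, 1373.4 and 2447.0 intensity units in null replicates 1, 2 and 3, against 1694.5, 3051.4 and 2059.2 in wildtype, and both groups were widely spread. Values before normalization are not on a common scale across arrays. Wildtype replicate 2 was the highest of the 6 arrays for Eed and Suz12 as well, at 2065.1 and 6159.1 units. The standard error over the beads was 2.35% to 5.81% of the intensity across all tested member probes and arrays. The median of 28 detected cell cycle genes, as a deviation from wildtype, was 0.03, -0.02 and 0.19 in null replicates 1, 2 and 3 and -0.07, 0.03 and 0.05 in wildtype. Its part in the Ezh2 values was not tested. A larger SD in null than in wildtype was common on these arrays, at 75.3% of all genes tested and 5 of the 9 Polycomb genes.

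The second probe of Ezh2 ranked the null arrays as the first did, but not the wildtype arrays. It had log2 intensities of 7.17, 6.89 and 7.34 in Smchd1 null and of 5.87, 7.05 and 6.74 in wildtype. Null replicate 2 was again the lowest null array, but here it lay above wildtype replicates 1 and 3. The log2 change was 0.58 (SE 0.31, adjusted p = 0.934). Wildtype replicate 1 was the lowest of the 6 arrays, and without it the log2 change was 0.24 (SE 0.21). The third Ezh2 probe was not detected on any array.

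Ezh1, the paralogue that prevails in resting cells, was close to background. Its brightest probe had log2 intensities of 5.44, 5.05 and 4.74 in Smchd1 null and of 5.37, 5.34 and 5.60 in wildtype. It was detected on 1 null array and on all 3 wildtype arrays. Null replicates 2 and 3 were below every wildtype array and replicate 1 lay among them, so the groups overlapped. The log2 change of -0.36 (SE 0.20, adjusted p = 0.934) was the lowest of the 9 genes. Near background intensity changes are compressed, and null replicates 2 and 3 were below detection, so the size of this change is uncertain. The log2 change was -0.19 (SE 0.17) without null replicate 3. The other Ezh1 probe was not detected on any array.

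Eed, the subunit that reads the methyl mark, had log2 intensities of 10.24, 10.26 and 9.78 in Smchd1 null and of 10.20, 10.38 and 10.06 in wildtype. Null replicates 1 and 2 lay within the wildtype range and replicate 3 lay below it. The log2 change was -0.12 (SE 0.18, adjusted p = 0.938), and it was 0.04 (SE 0.14) without null replicate 3. Suz12, the scaffold of PRC2, had 12.08, 12.08 and 12.03 in null and 12.12, 12.08 and 12.25 in wildtype. All null arrays were below all wildtype arrays, but null replicate 1 and wildtype replicate 2 differed by less than 0.01. Its log2 change of -0.09 (SE 0.13, adjusted p = 0.937) gave one of the narrowest intervals, a fold change between 0.761 and 1.16. A second Suz12 probe was detected on 2 wildtype arrays only and was not tested.

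Among the PRC1 genes, the ubiquitin ligase gene Rnf2 had the narrowest interval. It had log2 intensities of 6.47, 6.46 and 6.54 in Smchd1 null and of 6.45, 6.53 and 6.54 in wildtype, and the groups lay over each other. The log2 change was -0.01 (SE 0.13, adjusted p = 0.989), with a 95% interval of the fold change from 0.804 to 1.22. The probe lay near background, at 196.4, 220.8 and 215.8 intensity units in null and 206.4, 273.8 and 234.0 in wildtype. Intensity changes are compressed there, so this interval may understate the range of changes in RNA. Ring1, the paralogue of Rnf2, had 7.84, 8.02 and 7.36 in null and 7.75, 7.90 and 7.74 in wildtype. Null replicate 2 was the highest and null replicate 3 the lowest of the 6 arrays. Its log2 change was -0.05 (SE 0.20, adjusted p = 0.969), or 0.14 (SE 0.13) without null replicate 3. The second Ring1 probe had a log2 change of -0.29 (SE 0.27), with 6.01, 6.50 and 5.71 in null and 6.73, 6.41 and 5.96 in wildtype, and the groups overlapped there too.

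Bmi1, the Polycomb ring finger protein that stimulates the ligase, was dim, at 190.9, 189.0 and 175.5 intensity units in Smchd1 null and 184.6, 247.4 and 251.0 in wildtype, where the mean of the negative controls was 136.2 to 152.1 on the null arrays and 147.6 to 165.9 on the wildtype arrays. After normalization the log2 intensities were 6.35, 5.81 and 5.74 in null and 5.88, 6.21 and 6.77 in wildtype. Its wildtype arrays were the most widely spread of the 9 genes, with an SD of 0.45, and the groups overlapped. The log2 change was -0.32 (SE 0.27, adjusted p = 0.934), with a 95% interval of the fold change from 0.516 to 1.24, which reaches lower than that of any other of the 9 genes. Without null replicate 3 Bmi1 had a log2 change of -0.21 (SE 0.28).

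The chromobox gene Cbx7 had log2 intensities of 5.77, 6.46 and 6.09 in Smchd1 null and of 6.35, 6.35 and 6.34 in wildtype. The wildtype arrays differed by less than 0.01 while null replicate 1 was low and null replicate 2 above them all. The log2 change was -0.24 (SE 0.19, adjusted p = 0.934). Cbx8 had 6.68, 6.55 and 6.58 in null and 6.84, 6.51 and 6.77 in wildtype. The groups overlapped, with a log2 change of -0.10 (SE 0.15, adjusted p = 0.937). The probes of both genes lay near background, where intensity changes are compressed.

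**Figure D2:**
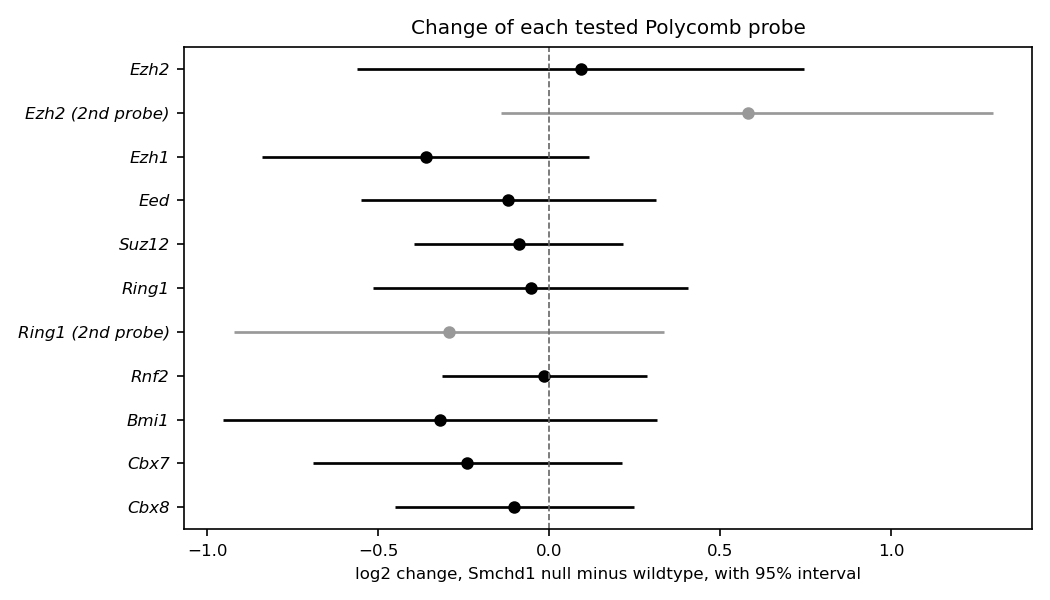
Log2 change (Smchd1 null minus wildtype, x axis) of the 11 tested Polycomb probes with its 95% interval from limma, 3 arrays a group; black marks the brightest probe of a gene and grey a second probe. Every interval includes 0, and those of Rnf2 and Suz12 are the narrowest. Rnf2 lies near background, where intensity changes are compressed.

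Paralogues that can replace each other in a complex were compared within arrays, to ask whether one moved relative to the other. The log2 intensity of Ezh2 minus that of Ezh1 was 5.78, 5.27 and 6.65 in Smchd1 null and 5.48, 5.64 and 5.22 in wildtype. Since the Ezh1 probe was not detected on null replicates 2 and 3, those differences are taken against background. The means differed by 0.45, with overlapping groups (exact permutation test over arrays, two-sided, p = 0.4, adjusted p = 1 over 5 pairs). The smallest p that 3 against 3 arrays allow is 0.1. Rnf2 minus Ring1 differed by 0.04 between null and wildtype (exact p = 1) and Cbx8 minus Cbx7 by 0.14 (exact p = 0.7). For Kdm6b minus Kdm6a, the demethylases that remove the PRC2 mark, the difference was -0.20 (exact p = 0.9), and for Phf19 minus Mtf2, paralogous PRC2 cofactors, it was -0.29 (exact p = 0.3). Bmi1 could not be set beside its paralogue Pcgf2, which was not detected on any array. These differences compare changes and say nothing of which paralogue is more abundant.

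Across arrays, the median of the 9 genes was lowest in Smchd1 null replicate 3. As a deviation from wildtype, their median stood at 0.00, -0.07 and -0.26 in Smchd1 null replicates 1, 2 and 3, against -0.03, 0.00 and 0.03 in wildtype. Of the 9 genes, 5 had their lowest value of all 6 arrays in null replicate 3 and 2, Ezh2 and Rnf2, had their highest there, so the 9 did not move as one. The share of all genes with an extreme value in that array was not computed, so these counts do not set the 9 genes apart. In null replicate 3, 7 of 9 lay below the wildtype mean, as 7 of 9 did in wildtype replicate 1. Bmi1 stood at -0.55 in null replicate 3, Ring1 and Eed at about -0.43, and Ezh1 at -0.70, whereas Ezh2 stood at 0.51. The pre-B cell markers had a median of 1.05 in the same array, against -0.03 and 0.13 in the other nulls, and their part in the Polycomb values was not tested. The median log2 change of the 9 genes was -0.09 without null replicate 3 and -0.19 without null replicate 2, and 0 of 9 passed the threshold in either case.

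**Figure D3:**
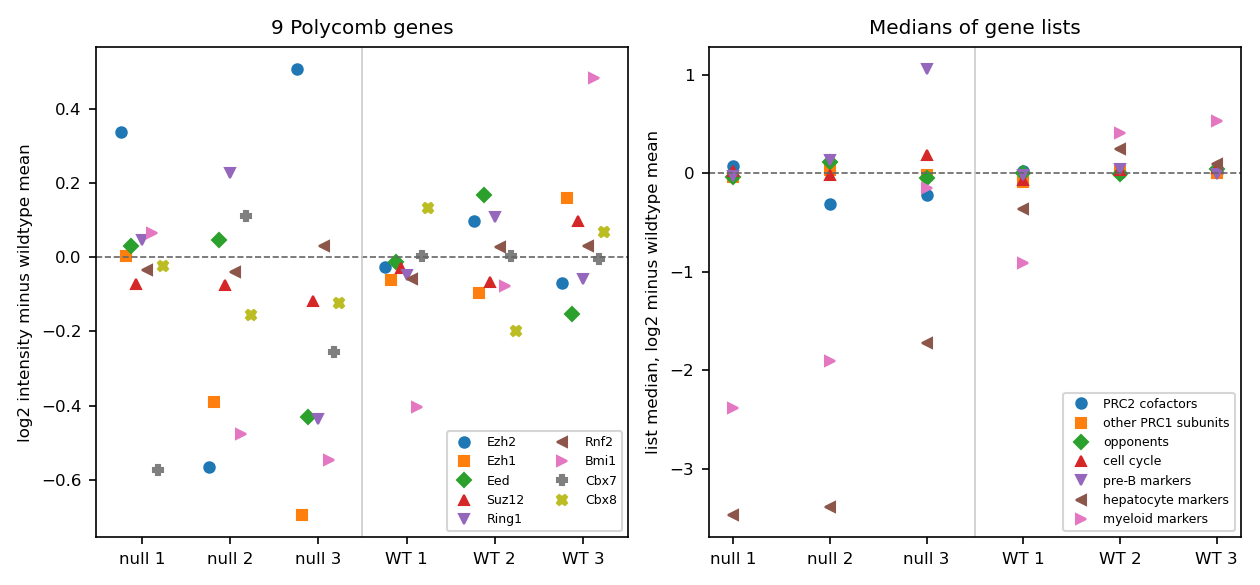
Deviation of each array from the wildtype mean on the log2 scale, for the 9 Polycomb genes (left) and as the median of other gene lists (right), with Smchd1 null arrays left of the wildtype arrays (WT). Ezh2 is high in null replicates 1 and 3 and low in replicate 2, most other members are lowest in null replicate 3, and the hepatocyte and myeloid markers vary far more than the Polycomb lists.

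The listed cofactors of PRC2 did not pass the test either. Of 9 listed, 6 were tested and 0 passed, with a median log2 change of -0.26. That median was -0.12 without null replicate 2, -0.13 without null replicate 3 and -0.09 with no detection filter. It was further from 0 without null replicate 1, at -0.36, and with median scaling, at -0.45, where the median of all genes was -0.18. The histone-binding proteins Rbbp7 and Rbbp4 had log2 changes of -0.29 (SE 0.19, adjusted p = 0.934) and -0.31 (SE 0.21, adjusted p = 0.934). The other tested probes had log2 changes of 0.07 and -0.18 for Rbbp4 and of -0.34, -0.18 and 0.03 for Rbbp7, so the probes of each gene differed in size and in sign. Phf19, which binds methylated histone H3, had -0.22 (SE 0.25), and its paralogue Mtf2 had 0.06 (SE 0.15). Without null replicate 3 Phf19 had -0.47 (SE 0.19, adjusted p = 0.66) and Mtf2 had -0.03 (SE 0.13). Epop, a PRC2 partner known from mouse embryonic stem cells, had log2 intensities of 9.68, 9.72 and 7.88 in Smchd1 null against 9.48, 9.69 and 9.57 in wildtype. Only null replicate 3 was low, and the log2 change was -0.49 (SE 0.47) with it and 0.12 (SE 0.12) without it. Jarid2, which helps to recruit PRC2, was detected on 1 array by one of its 2 probes and was not tested.

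Of 28 other PRC1 subunits and partners, 22 were tested, 12 above and 10 below 0, with a median of 0.01 and 0 past the threshold. Among the chromobox genes, Cbx2 had a log2 change of 0.20 (SE 0.20) and Cbx6 one of 0.01 (SE 0.14). The Polyhomeotic genes Phc1 and Phc2, whose products join PRC1 complexes to each other, had 0.03 (SE 0.16) and -0.15 (SE 0.13). For Phc2 all null arrays, at 10.09, 10.11 and 10.12, were below all wildtype arrays, at 10.28, 10.27 and 10.22 (adjusted p = 0.934). Such a gap was seen for 1 of the 22 genes by the brightest probe, where 4.89% of all genes had one. Kdm2b, which brings a PRC1 variant to unmethylated CpG islands, had -0.09 (SE 0.18). The genes with the smallest p in the list were E2f6, a repressor found in another PRC1 variant, at -0.20 (SE 0.14), Pcgf3 at -0.32 (SE 0.24) and the deubiquitinase Usp11 at 0.24 (SE 0.19), each with an adjusted p of 0.934. Several of these values moved when null replicate 3 was left out. Without it the log2 change was -0.13 for E2f6, -0.09 for Pcgf3, 0.10 for Usp11, 0.04 for Cbx2, -0.10 for Phc1 and 0.07 for Kdm2b. With all arrays, the other tested probes of E2f6 had log2 changes of -0.38, -0.17 and 0.02, and that of Usp11 had -0.08. The probes of each of these genes thus differed in sign.

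No gene among the enzymes and partners that oppose Polycomb silencing passed the test. Of 18 listed, 16 were tested, 9 above and 7 below 0, with a median of 0.01 and 0 past the threshold. Kdm6b, the inducible demethylase of the PRC2 mark, had log2 intensities of 8.95, 8.81 and 8.26 in Smchd1 null against 9.13, 8.97 and 9.01 in wildtype. By this brightest probe all null arrays were below all wildtype arrays, with null replicate 3 the lowest. Such a gap was seen for 1 of the 16 genes, where 4.89% of all genes had one. Kdm6b had a log2 change of -0.37 (SE 0.20, adjusted p = 0.934), or -0.16 (SE 0.13) without null replicate 3. Its other tested probes had -0.47 (SE 0.28) and -0.03 (SE 0.23), with overlapping groups. Kdm6a, its X-linked relative, had -0.16 (SE 0.15) by the brightest probe and -0.23 (SE 0.14) by the second. The brightest probe had -0.25 (SE 0.13) without null replicate 3. Bap1 and Asxl1, subunits of the enzyme that removes ubiquitin from H2A, had 0.06 (SE 0.14) and -0.01 (SE 0.14), and Usp21, another H2A deubiquitinase, had 0.18 (SE 0.14).

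Genes known as Polycomb targets in other mouse cells were mostly below detection on these arrays in both groups. Of 62 listed, the Hox genes among them, 7 were tested and 0 passed the threshold. Cdkn2a, the cell cycle inhibitor locus that both complexes repress, was detected by none of its 3 probes on more than 2 arrays. By the brightest of the 3 it had 5.63, 4.73 and 4.64 in Smchd1 null and 4.56, 4.81 and 5.34 in wildtype, with 1 array detected in each group. For 2 of the 7 tested genes, Isl1 and Hoxa7, every null array was above every wildtype array, where 4.72% of all genes showed this. That count does not set the targets apart, since Isl1 was tested only because it was detected in null. Isl1, a LIM homeodomain factor, had 6.40, 5.64 and 5.93 in null and was not detected in wildtype, at least 1.84-fold higher in null (adjusted p = 0.244). It met the detection filter through its null arrays alone, so its difference is in part a result of that filter. Hoxa7, a homeobox gene, had 6.96, 6.70 and 8.68 in null and 6.15, 5.65 and 5.93 in wildtype, a log2 change of 1.54 (SE 0.49, adjusted p = 0.934), or 0.92 (SE 0.18) without null replicate 3. With median scaling of the arrays Hoxa7 passed, with an adjusted p of 0.0276. Tbx3, a T-box factor, had -0.27 (SE 0.16).

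The genes whose pattern over the 6 arrays was most like that of a Polycomb gene are given as a description, out of 10903 compared and with no test. For Ezh2 these were LOC100048313 (Pearson r of 0.993), 4930563B10Rik (0.992) and Atp6v1e1 (0.988), a subunit of the vacuolar proton pump. For Bmi1 they were LOC100045300 (0.979), Bst2 (0.978) and Gm5591 (0.974), and for Cbx7 Zbtb39 (0.978), Garre1 (0.977) and Setd7 (0.976). Among the 9 members themselves the closest pair was Eed and Ring1 (r of 0.917 over the 6 arrays, both lowest in null replicate 3). Ezh2 had an r of -0.491 with Eed and -0.309 with Suz12, its partners in PRC2. All such values share the same 6 arrays and null replicate 3.

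Adjusted p-values of the 9 genes were 0.444 or more in every alternative that refit their probes, which is 16 for each gene but Ezh1. Ezh1 was refit in 15, since its probe did not meet the filter of detection p under 0.01 on all 6 arrays. Ezh2 had the widest range, with a log2 change from -0.32 to 0.42 over 16 alternatives.

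**Figure D4:**
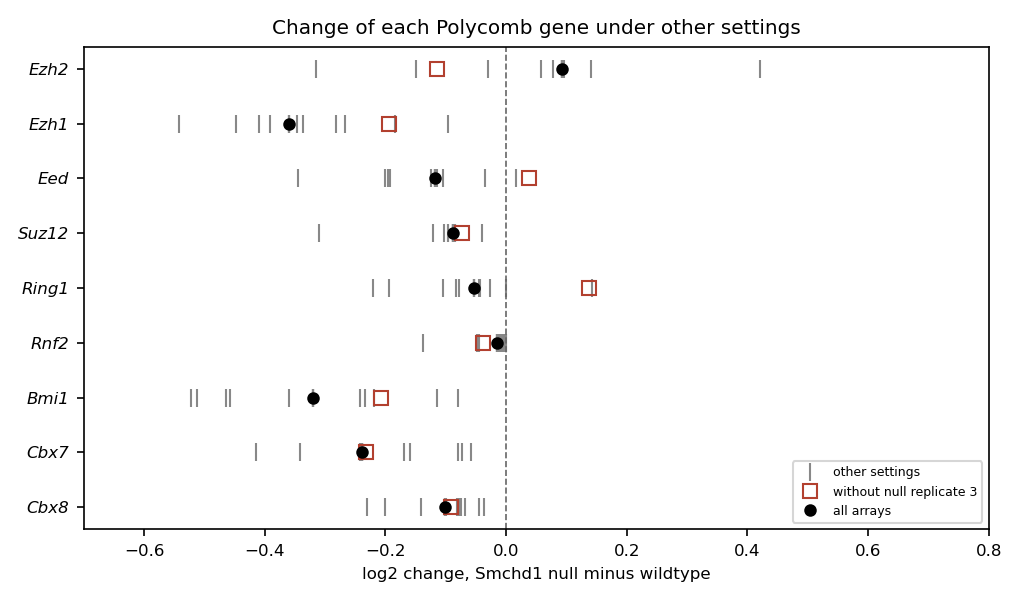
Log2 change (Smchd1 null minus wildtype, x axis) of the brightest probe of each Polycomb gene with all arrays (black), without null replicate 3 (red squares) and under the other settings (grey ticks). The values of Ezh2 spread from -0.32 to 0.42 and lie on both sides of 0, and leaving out null replicate 3 turns the sign for Ezh2, Eed and Ring1.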

How the data were processed

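Total RNA of sorted pre-B cells from 6 samples was measured on 6 arrays of 1 BeadChip. Each deposited intensity is a probe's mean over its beads, per the file headers an export of GenomeStudio that was not normalized. The deposited detection values are p-values against negative control probes, and 1 of the tables holds 1 minus that p-value as a fraction, as the deposited numbers show. The authors' deposited log2 values were made with neqc of limma (limma 3.12.1 and R 2.15.1, per the submitters' processing notes). The largest gap to the values computed here was 5e-09.

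Here neqc (limma 3.58.1, R 4.3.3, offset 16) was run on 45281 probes and 974 control probes, of which 936 were negative controls. It corrects background from the negative controls, quantile normalizes and takes log2. Probes with a detection p under 0.05 on at least 3 arrays were tested, 15878 in all, and control probes were left out. Smchd1 null was compared with wildtype with lmFit and eBayes in a two-sided test of 3 against 3 arrays with no covariate, and p-values were adjusted by Benjamini-Hochberg over all tested probes at 0.05. Intervals are 95% intervals of limma, not adjusted. A gene was represented by its brightest tested probe, over 10904 genes. Names were matched to RefSeq (GRCm38.p6), 27400 probes by symbol and 8341 by a synonym of 1 gene. The files name no genome build, so the only coordinates given are those of the RefSeq promoters. The number of arrays limits the precision.

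The rule for named genes took every member and its probes, Smchd1, 17 further Polycomb genes by name, the 3 genes with the smallest p in each of 4 further lists, and the 3 genes most correlated with each of Ezh2, Bmi1 and Cbx7. Some genes that the rule or the lists hold are not reported here. The members and lists were chosen with earlier results of these data known. The fit was tested on simulated data. There a log2 change of 1 passed the threshold in 34.4% of the probes given it, and one of 2 in 90%. Most changes of the smaller size were thus missed. No paired design is stated, so the samples were not treated as pairs. The deviations of same-numbered null and wildtype arrays correlated at 0.023, 0.038 and -0.007, and those of differently numbered arrays at -0.045 to 0.015. Such values cannot decide whether the replicate numbers pair the samples. The alternatives were other background corrections, offsets, scalings, filters, moderation, array weights, the replicate block, a threshold of 0.1, the mean of a gene's probes and the omission of each array.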

Additional observations from a re-analysis of the deposited data

How the results depend on the processing

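The 9 Polycomb genes, the PRC2 cofactors, the other PRC1 subunits and the opponents had 0 genes past the threshold under every alternative run. With detection p under 0.01 on all 6 arrays, Ezh1 was not among the genes tested. Of the Polycomb targets 1 passed, Hoxa7, with median scaling. That scaling moved the median of all genes to -0.18 and of the 9 members to -0.31, from -0.01 and -0.10 with all settings as described. Some log2 changes, none past the threshold, changed sign. Ezh2 had -0.15 with median scaling, above the median of all genes there, -0.32 with array weights, -0.03 without null replicate 1 and -0.11 without null replicate 3. Eed had 0.017 with array weights and 0.038 without null replicate 3, Ring1 had 0.14 under both and 0.069 at its second probe with array weights, and Rnf2 had 1e-04 without wildtype replicate 3. Leave-one-out ranges of the log2 change were -0.11 to 0.42 for Ezh2, -0.52 to -0.08 for Bmi1, -0.54 to -0.19 for Ezh1, -0.41 to -0.07 for Cbx7, -0.20 to -0.04 for Cbx8, -0.20 to 0.038 for Eed, -0.19 to 0.14 for Ring1, -0.044 to 1e-04 for Rnf2 and -0.12 to -0.04 for Suz12. Among paralogue differences, Cbx8 minus Cbx7 was -0.068 without null replicate 1, Kdm6b minus Kdm6a was 0.092 and Rnf2 minus Ring1 was -0.17 without null replicate 3, and Rnf2 minus Ring1 was -2e-04 without wildtype replicate 2. Their ranges without single arrays were -0.068 to 0.34, -0.36 to 0.092 and -0.17 to 0.19, and those of Ezh2 minus Ezh1 and Phf19 minus Mtf2 were 0.079 to 0.77 and -0.44 to -0.12. The cause was not tested. The count of all probes past the threshold was 9. It was 14 at a threshold of 0.1, 5 with normexp on the regular probes alone, 3 without background correction, 56 with median scaling, 2 with detection p under 0.01 on all 6 arrays, 52 with array weights, 2 with the replicate block and 2 to 41 without single arrays, the 41 without null replicate 3. Array weights counted null replicate 3 at 0.165. The replicate block left the members at 0 past the threshold, with a log2 change of 0.09 for Ezh2 (adjusted p = 0.967), and changed no call among them. Bmi1, Ezh1, Cbx7, Cbx8 and Rnf2 lie near background, where intensity changes are compressed.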
